A study of Mus musculus with 2 samples.

Results

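The endothelial genes described here are 10 genes that mark the lining cells of blood vessels, read in RNA of regulatory T cells (Tregs) sorted from mouse kidney. They are Pecam1, Cdh5, Kdr, Flt1, Tek, Emcn, Plvap, Ehd3, Vwf and Eng. A gene was taken from the arrays when a probe that is not a control carried a RefSeq accession that maps to its symbol. All 10 were found among 22911 named genes, each with 1 probe and 1 spot on each array. The choice used gene identity and no measured value.

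Each array held Tregs sorted as CD45+, CD3e+, CD4+ and FoxP3-hCD2+ from renal tissue on day 28 after induction of cGN, an antibody-mediated kidney injury. The FoxP3-hCD2 reporter shows human CD2 on the surface of cells that express Foxp3. Array 2 is recorded under anti-GBM antibody lot M in the scanner output and array 1 under lot I, where anti-GBM stands for antibodies against the glomerular basement membrane. Both arrays are of injured mice, no uninjured or untreated group was analysed here, and the labels give neither the strain, age and sex of the mice nor how many were pooled. The design text says that the lots differed in the severity of disease that they caused.

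Endothelial cells line every vessel of the kidney, from the fenestrated capillaries of the glomerulus to the peritubular capillaries, arterioles and veins. They are held together by junction proteins and are kept alive by vascular endothelial growth factor (VEGF), much of it made by podocytes and tubules, and by angiopoietins. The sort selects CD45+ T cells, so transcripts that belong to the vessel wall serve as a measure of RNA from other cells. Some of the 10 genes are not exclusive to endothelium: Pecam1 is carried by leukocytes and platelets, Eng by activated macrophages, and Vwf by platelets and megakaryocytes.

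There was 1 array per lot, so no test was possible and each difference describes these 2 arrays. Levels are log2 of the processed signal minus the 75th percentile of the array (279.5 signal units on array 2 and 285.6 on array 1), and a difference is array 2 minus array 1. The error after a difference combines the spot errors that the scanner software reports for both arrays, and it holds no variation between mice. A probe was called measured when it was flagged well above background, meaning that its signal exceeded the local background by a set multiple of the background's spread. The lowest level so flagged, the detection floor, was -4.58 on array 2 and -4.62 on array 1. The sources contradict each other on the lots, because the value table lists array 2 as lot I and array 1 as lot M, so the arrays are named by number. As a check that T cell RNA was present, all 12 genes of a T cell list were read. All 12, Foxp3 and Cd3e among them, were measured on both arrays, and their median difference was -0.01. These genes check neither the lots nor the purity of the sort. The differences of that list largest in size were -0.17 for Foxp3, -0.15 for Cd247 and 0.12 for Il2ra.

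Of the 10 endothelial genes, 9 were well above background on both arrays and 1, Tek, on neither. Over all named genes 60% were well above background on both. Among the 9, 8 lay below the 75th percentile on both arrays, and Ehd3 lay above it on both. For comparison, 55.6% of all measured genes were above it on both. The median difference of the 9 genes was 0.03, with 5 higher in array 2 and 4 lower, where all measured genes had a median of 0.01 and 53.8% were higher in array 2. The sign of this small median turned under other scalings, to -0.01 with median scaling, -0.04 with spike-in scaling and -0.02 with quantile normalisation. Eng was the single gene past 1.5-fold (5.97% of all measured genes in either direction), and none of the 9 reached 2-fold (1.43%). In bulk RNA, fewer cells of a type and less RNA per cell cannot be told apart.

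**Figure D1:**
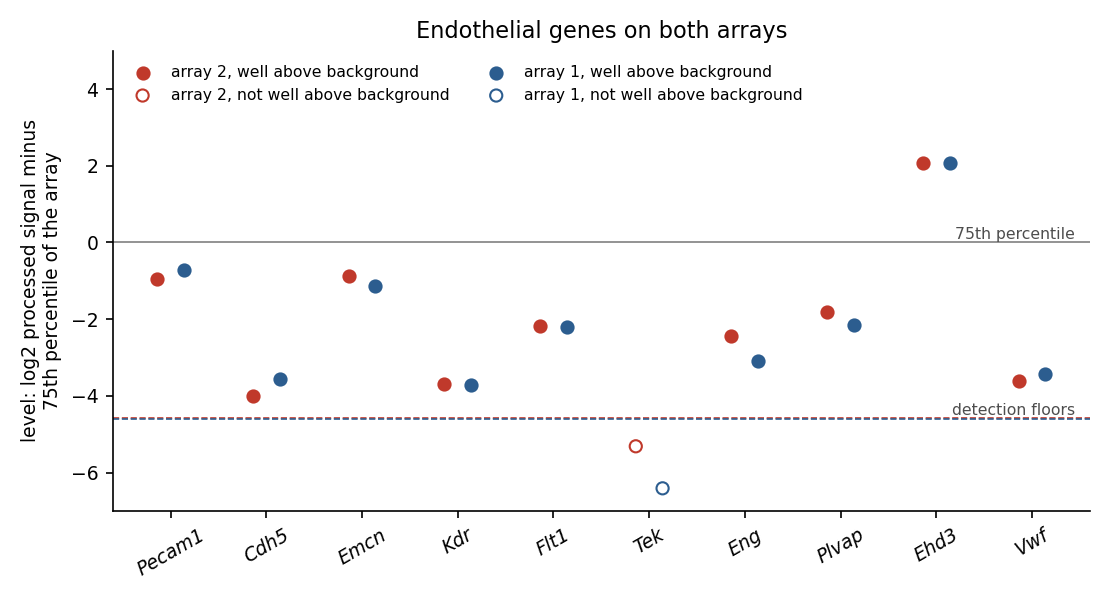
Level of each endothelial gene (log2 processed signal minus the 75th percentile of the array, vertical axis) on array 2 and array 1, 1 spot each, with filled points well above background and open points not. The dashed lines are the detection floors at -4.58 and -4.62. Only Ehd3 lies above the 75th percentile, and only Tek lies below the floors.

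Of 3 genes for endothelial surface proteins, Pecam1 and Cdh5 were lower in array 2 and Emcn was higher. Pecam1, an adhesion molecule at cell borders, had a processed signal of 144 in array 2 and 173 in array 1, as levels -0.96 and -0.73. Its difference was -0.24 ± 0.21. Cdh5, the cadherin of endothelial junctions (VE-cadherin) and a standard marker of the cell type, was dim, with a signal of 17.6 in array 2 and 24.3 in array 1. The spot itself read 45 against a local background of 25 in array 2, and 51.5 against 25 in array 1. The levels were -3.99 and -3.56, within 1.06 of the detection floor on both arrays, and the difference was -0.43 ± 0.35. With normexp background correction the difference of Cdh5 was -0.09 and that of Pecam1 was -0.09. This setting adds an offset of 50 units to each corrected signal, which tends to draw the differences of dim genes toward 0. Emcn, the sialomucin endomucin of capillary and venous endothelium, had a signal of 154 in array 2 and 129.9 in array 1 (levels -0.86 and -1.14), a difference of 0.27 ± 0.21. The 3 differences exceeded 1 spot error and none exceeded 2 spot errors. Of the 9 measured endothelial genes, 5 exceeded 1 spot error (28.6% of all measured genes).

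The VEGF receptors gave nearly equal values on both arrays. Kdr (VEGFR2), the main signalling receptor for VEGF, had a signal of 21.5 in array 2 and 21.6 in array 1, at levels of -3.70 and -3.72, with a difference of 0.03 ± 0.31. Flt1 (VEGFR1), which binds VEGF tightly and also exists as a soluble decoy, had a signal of 62.3 in array 2 and 61.5 in array 1, at levels of -2.17 and -2.21, with a difference of 0.05 ± 0.22. Both differences were smaller than their spot error, and that of Flt1 was 0.14 with normexp. The signs of Kdr and Flt1 turned with spike-in scaling, to -0.04 and -0.01. The probe sequences were not used here, so which form of Flt1 the probe reads was not determined.

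Ligands and partner receptors were read from a list of 14 genes, of which 8 were measured. Their median difference was -0.04, with 3 higher in array 2. Vegfa, the VEGF that acts on Kdr and Flt1, differed by 0.31 ± 0.13, but its 4 probes ranged from -0.26 to 0.72. Vegfb, a ligand of Flt1, differed by -0.02 ± 0.21, and the related ligand gene Pgf was well above background on neither array. The coreceptor gene Nrp1, which Tregs themselves express in mice, stood at 2.76 in array 2 and 2.81 in array 1 (difference -0.05 ± 0.12). Its relative Nrp2 differed by 0.19 ± 0.15. Flt4, the VEGF receptor of lymphatic endothelium, was well above background on neither array.

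Tek, which encodes the angiopoietin receptor Tie2, was the one endothelial gene without a usable level. Its signal was 7.02 in array 2 and 3.35 in array 1, with signal errors of 2.60 and 2.51. The spot read 41.5 against a local background of 30 in array 2, and 35 against 28.5 in array 1. Both spots were flagged as positive and significant but not as well above background, so no fold is given. Of the angiopoietins, the vessel-destabilising Angpt2 was measured at -0.77 in array 2 and -0.65 in array 1 (difference -0.12 ± 0.21). Angpt1, the main activating ligand of Tie2, was well above background on array 1 only, with a level there of -4.48, close to the floor, and a bound of at least 1.07-fold lower in array 2. Tie1, the related receptor, was well above background on neither array.

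The promoters of Emcn, Tek and Ehd3 are shown because Emcn and Tek are the members with a longer match to an ETS motif, while one of them was measured and the other was not, and because Ehd3 was the member above the 75th percentile. ETS factors, among them Erg, bind DNA with a GGAA core and drive many endothelial genes. RefSeq promoters on GRCm38.p6 were found for 6 of the 10 genes, and the 250 bases before the transcription start were searched on both strands. The letters CAGGAA, which contain GGAA, occurred in 2 of the 6 promoters, 2 times each in Emcn and Tek, and in 25.7% of 32851 promoters. GGAA itself occurred in all 6, and in 93.4% of all promoters. The GC box letters GGGCGG occurred in Kdr and Flt1 (32.7% of all promoters), and TATAAA in Flt1 (12.4%). The sequences run 5′ to 3′ along the plus strand, which is the strand of these 3 genes. Capitals mark CAGGAA or its reverse complement. Emcn is at chr3:137340828-137341077, Tek at chr4:94739039-94739288 and Ehd3 at chr17:73804591-73804840.
Emcn: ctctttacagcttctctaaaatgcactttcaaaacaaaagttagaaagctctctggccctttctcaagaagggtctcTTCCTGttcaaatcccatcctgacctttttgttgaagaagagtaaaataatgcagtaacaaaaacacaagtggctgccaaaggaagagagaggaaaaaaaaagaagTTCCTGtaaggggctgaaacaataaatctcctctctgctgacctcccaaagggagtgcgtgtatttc
Tek: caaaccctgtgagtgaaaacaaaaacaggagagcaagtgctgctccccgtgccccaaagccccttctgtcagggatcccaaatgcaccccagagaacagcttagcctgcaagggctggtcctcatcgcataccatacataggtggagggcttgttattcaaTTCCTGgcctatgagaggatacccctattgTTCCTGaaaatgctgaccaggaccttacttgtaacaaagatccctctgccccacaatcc
Ehd3: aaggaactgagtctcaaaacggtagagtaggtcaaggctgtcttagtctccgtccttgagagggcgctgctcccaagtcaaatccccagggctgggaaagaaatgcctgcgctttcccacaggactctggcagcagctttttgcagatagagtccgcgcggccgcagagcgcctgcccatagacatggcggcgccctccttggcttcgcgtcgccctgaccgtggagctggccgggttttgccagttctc
Emcn and Tek carry the same number of CAGGAA matches, and Emcn was measured on both arrays and Tek on neither. Ehd3 has no such match in this window. A match is a description of the letters and not a bound site.

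Eng had the largest difference of the 9 measured genes. Eng encodes endoglin, a coreceptor of endothelium for BMP9, BMP10 and TGF-beta. Its signal was 51.9 in array 2 and 33.7 in array 1, with signal errors of 5.85 and 4.36. The spot read 82 against a local background of 31 in array 2, and 64 against 29 in array 1. The levels were -2.43 and -3.08, a difference of 0.65 ± 0.25 (1.57-fold), and it was the single endothelial gene whose difference exceeded 2 spot errors (10.2% of all measured genes). With normexp the difference was 0.26, below 1.5-fold, where 1.72% of measured genes passed 1.5-fold in either direction. With the stricter filter, a signal of at least 4 times the floor on both arrays, Eng was not kept. Of 1354 genes with a mean level between -3 and -2, 15% differed by 1.5-fold or more, and the 5th to 95th percentile of their differences ran from -0.44 to 0.92, so Eng lay within that range.

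The measured partners of endoglin had differences smaller than 1 spot error. Acvrl1, the type I receptor ALK1 of endothelium, stood at -1.03 in array 2 and -1.23 in array 1 (difference 0.19 ± 0.21). Bmpr2, the type II receptor, stood at 2.01 in array 2 and 2.09 in array 1 (difference -0.08 ± 0.20). The ligand genes Gdf2 (BMP9) and Bmp10 were well above background on neither array. Macrophages can also express Eng, and a macrophage list had 11 of 12 genes measured. All 11 were higher in array 2 (53.8% of all measured genes), with a median of 0.32. Of the 11, 8 differed by more than 1 spot error (28.6% of all measured genes) and 3 did not. Mrc1 (0.01) and Cx3cr1 (0.04) were near 0, so their sign depends on the scaling. Adgre1 (F4/80) differed by 0.46, C1qc by 0.42 and Apoe by 0.41. The summed level of that list was 41.3 times the 75th percentile in array 2 and 32.2 times in array 1, and without Apoe, its brightest gene, 23.6 times in array 2 and 19.0 times in array 1. The part of macrophage RNA in the value of Eng was not tested.

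Plvap and Ehd3 relate to the form of the capillary. Plvap, which builds the diaphragms of fenestrae and is abundant in peritubular capillaries, had a signal of 79.9 in array 2 and 64.7 in array 1, at levels of -1.81 and -2.14. Its difference was 0.34 ± 0.22, above 1 spot error and below 2, and 0.22 with normexp. Ehd3, a membrane-trafficking protein that in kidney marks glomerular endothelium, had a signal of 1171 in array 2 and 1211 in array 1, at levels of 2.07 and 2.08. Its difference was -0.02 ± 0.20, and the range over all alternatives other than the value table was -0.08 to -0.0039. The spot read 39.2 times its local background in array 2 and 38.7 times in array 1, well clear of the floor. The summed level of the 9 measured genes was 6.17 times the 75th percentile in array 2 and 6.11 times in array 1. Ehd3 carried most of both sums, which without it were 1.98 times in array 2 and 1.87 times in array 1. Ehd3 lay above the 75th percentile, whereas the 6 measured genes of a further glomerular endothelial list lay below it on both arrays. Which cells gave the Ehd3 signal was not tested, so the sums need not be endothelial RNA alone.

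Vwf, the clotting glycoprotein stored in endothelium of larger vessels and in platelets, had a signal of 22.7 in array 2 and 26.3 in array 1. Its levels were -3.63 and -3.44, with a difference of -0.18 ± 0.29, smaller than the spot error, and -0.02 with normexp. Of 9 platelet genes, Pf4 was measured on both arrays, at -0.13 in array 2 and -0.67 in array 1 (difference 0.54 ± 0.21). Itga2b and Gp6 were above background on array 2 only, and Ppbp, Gp1ba, Gp1bb, Gp9, Treml1 and Clec1b were well above background on neither array. Because the difference of Vwf was smaller than its spot error, its sign was not compared with that of Pf4. Neither the part of platelet RNA in Vwf nor the cells that gave the Pf4 signal were tested.

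**Figure D2:**
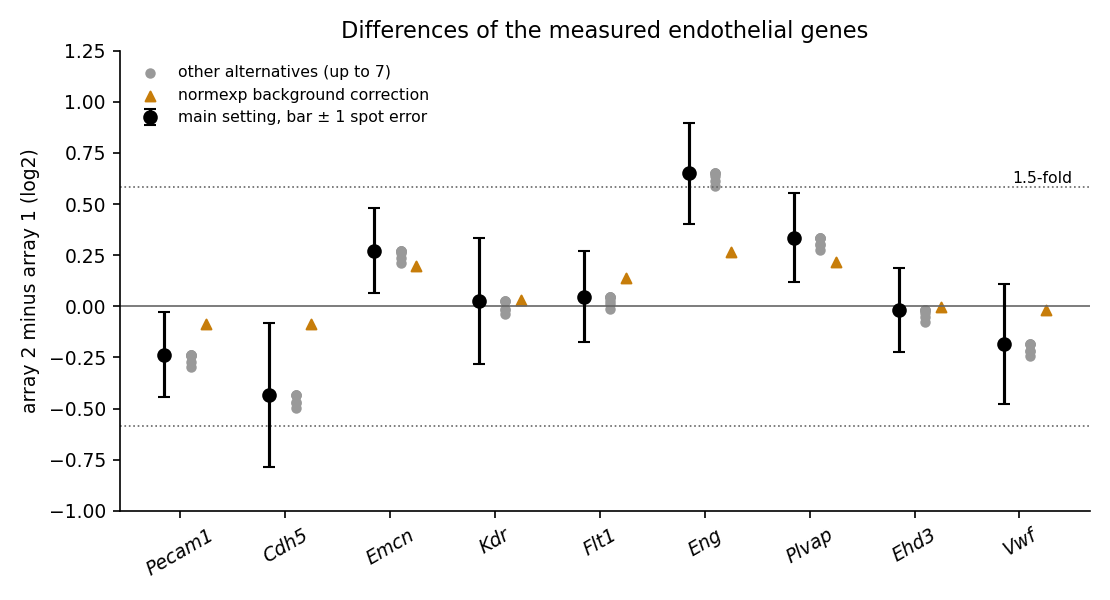
Difference of each measured endothelial gene (array 2 minus array 1, log2, vertical axis). Black points with bars of ± 1 spot error are the main setting, orange triangles are normexp background correction and grey points the other alternatives apart from the value table. Eng at 0.65 is above the dotted 1.5-fold line in the main setting and at 0.26 below it with normexp.

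Other endothelial lists held genes of both signs, apart from the lymphatic list, whose 2 measured genes were both higher in array 2. Together with the 10 genes they held 60 genes, of which 43 were measured, with a median of 0.10. Of the 43, 28 were higher in array 2 (53.8% of all measured genes) and 15 lower. Of the 43, 3 were 1.5-fold or more higher in array 2 (5.15% of all measured genes) and 0 were as much lower (0.815%). In a list of 20 further pan-endothelial genes, 13 were measured, with a median of 0.07. The junction gene Cldn5 was lower in array 2 (-0.50 ± 0.27), as Cdh5 was, while the junction gene Esam was higher (0.47 ± 0.26). Robo4, a guidance receptor of endothelium, was also higher (0.43 ± 0.23). Cldn5 and Esam were dim, at -3.56 and -2.73 in array 2 and at -3.05 and -3.20 in array 1. Their differences lay within the 5th to 95th percentile of all measured genes at their levels. The transcription factor genes Erg, Sox7 and Sox18 were well above background on neither array, nor were Clec14a, Adgrl4 and Myct1. A further transcription factor gene of that list, Sox17, was measured on both arrays. It was dim, at -3.07 in array 2 and -3.13 in array 1 (difference 0.07 ± 0.26). Egfl7, the brightest gene of the list, stood at 0.97 in array 2 and 1.06 in array 1 (difference -0.08 ± 0.20).

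Among genes of particular vessel beds, Cyp26b1 and Ephb4 were past 1.5-fold, both higher in array 2 (5.15% of all measured genes in that direction). Of the 16 measured genes in 3 such lists, 9 differed by no more than 1 spot error, and 7 by more (28.6% of all measured genes). Of 8 further glomerular endothelial genes, 6 were measured, 5 of them higher in array 2 (53.8% of all measured genes), with a median of 0.19 that was 0.11 with normexp and 0.10 with no filter on dim probes. Cyp26b1, which breaks down retinoic acid, stood at -2.32 in array 2 and -3.52 in array 1 and had the largest difference, 1.19 ± 0.27, above 2-fold (1.34% of all measured genes in that direction). On array 1 it was within 4 times the detection floor, so the stricter filter does not keep it. Of genes with a mean level between -3 and -2, as it had, 15% differed by 1.5-fold or more. The 95th percentile of their differences was 0.92, and Cyp26b1 lay above that. Plat, the tissue plasminogen activator, followed at 0.33 ± 0.36 and Pi16 at 0.20 ± 0.21. The endothelial nitric oxide synthase partner Nostrin differed by 0.01 ± 0.33 and the transcription factor gene Gata5 by -0.01 ± 0.21. Of 9 genes of other vessel beds, 8 were measured with a median of 0.23, which was 0.15 with normexp and 0.14 with no filter on dim probes. The venous receptor gene Ephb4 differed by 0.60 ± 0.22, the venous factor gene Nr2f2 by 0.44 ± 0.22 and the arterial ligand gene Efnb2 by 0.33 ± 0.22, while the urea transporter gene Slc14a1 of the vasa recta differed by -0.30 ± 0.14. Of 5 lymphatic genes, Prox1 (0.28 ± 0.21) and Pdpn (0.12 ± 0.22) were measured, and Lyve1, Reln and Mmrn1 were well above background on neither array.

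Activation of endothelium was read from 8 genes, of which 5 were measured, with a median of -0.04. The adhesion gene Icam1, also expressed by leukocytes, stood at 0.02 in array 2 and 0.06 in array 1. Vcam1, which binds leukocyte integrins, differed by 0.57 ± 0.18, but its 2 probes gave 0.05 and 1.09. The anticoagulant gene Thbd differed by 0.42 ± 0.21, whereas the protein C receptor gene Procr was lower in array 2 (-0.35 ± 0.25). The selectin genes Sele and Selp and the endothelin gene Edn1 were well above background on neither array.

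The endothelial genes were set beside genes of other cells that the sort should exclude. The 9 measured endothelial genes had a median of 0.03 with 1 of 9 past 1.5-fold, whereas all 16 proximal tubule genes were measured, with a median of 1.15 and 15 of 16 past 1.5-fold (5.15% of all measured genes in that direction). The largest were Slc5a2 at 1.59, Slc13a3 at 1.21 and Lrp2 at 1.20, which encode a glucose transporter, a dicarboxylate transporter and the endocytic receptor megalin. None of the 9 reached the lowest of those 15 differences, that of Hnf4a at 0.73 ± 0.20. The nearest was Eng at 0.65 ± 0.25, and the gap between Eng and Hnf4a was smaller than either spot error. Aqp1, the tubule gene that did not pass (-0.15 ± 0.20), is also expressed by endothelium of the vasa recta. Distal nephron genes had a median of 0.59 over 11 of 14 genes, led by Aqp2 at 1.60, Pvalb at 1.41 and Atp6v1g3 at 0.77. Endothelial genes lay nearer to podocyte genes, whose median was 0.04 over 5 of 9 genes, with Ptpro (0.11), Magi2 (-0.09) and Synpo (-0.05) furthest from 0 and with Nphs1, Podxl and Wt1 among those well above background on neither array. Mesangial and pericyte genes had a median of 0.29 over 6 of 12 genes, all 6 higher in array 2 (53.8% of all measured genes). The largest were 0.40 for Col1a2 and 0.34 each for Col1a1 and Tagln. That median was 0.15 with normexp. Outside the 6, Pdgfra was well above background on array 1 only, at least 2.36-fold lower in array 2, while Cspg4 and Col3a1 were so on array 2 only, at least 2.93-fold and 1.21-fold higher there. The difference between these medians was not tested.

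**Figure D3:**
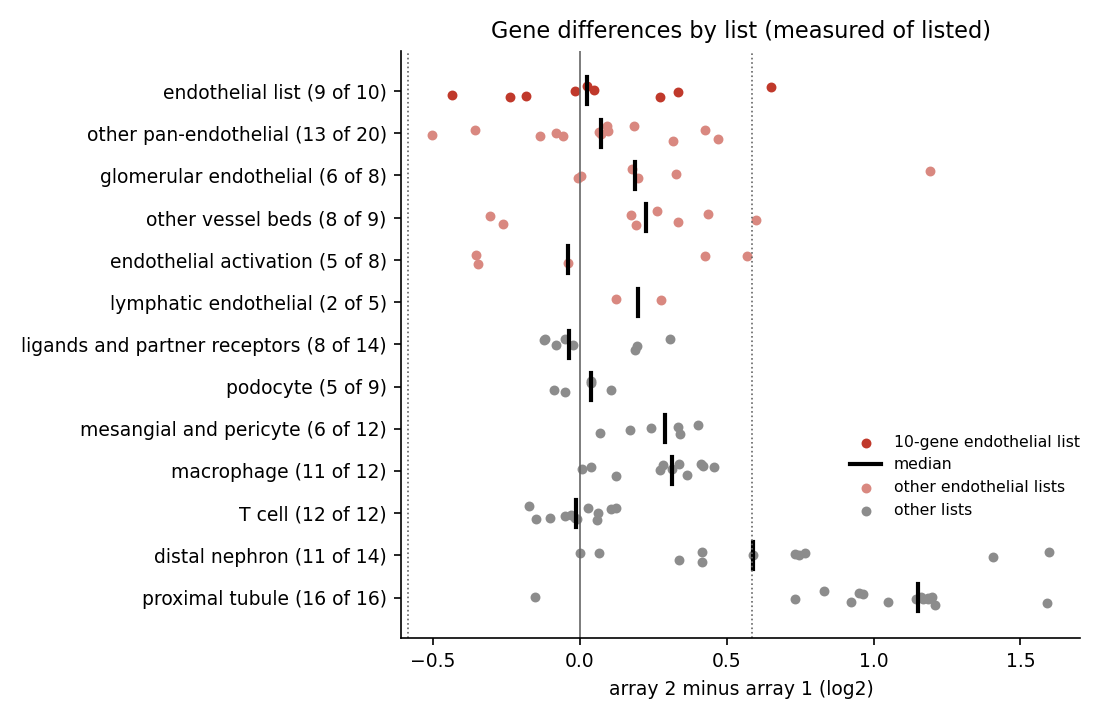
Differences of single genes (array 2 minus array 1, log2, horizontal axis) by list, with the number measured of the number listed. The black bars are medians and the dotted lines 1.5-fold. The endothelial list has a median of 0.03 and the proximal tubule list one of 1.15. The platelet list, with 1 measured gene, is not drawn.

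Over all measured genes, the spread of differences was wider in the lower of the level ranges given here. That spread holds measurement error and any true difference between the arrays together. Cdh5, Kdr and Vwf had mean levels between -4 and -3, where 21.5% of 1102 genes differed by 1.5-fold or more and the 5th to 95th percentile of differences ran from -0.60 to 0.97. All 3 lay within that range. Pecam1, Emcn and Plvap had mean levels between -2 and 0, where 6.81% of 3244 genes passed 1.5-fold and the range was -0.31 to 0.67. Ehd3 lay in the range above 2, where the differences ran from -0.16 to 0.20. Some probes were spotted at least 5 times on each array. With a mean level between -3 and -2, the range of Eng and Flt1, there were only 3 such probes. Their median SD between repeated spots was 0.09 on array 2 and 0.14 on array 1. Above 2, the range of Ehd3, there were 269 such probes. Their median SD was 0.03 on both arrays, with a median expected SD of a difference of 0.05. The spot error given for the difference of Ehd3 was 0.20. None of the 20 endothelial spots was saturated or flagged as an outlier.

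**Figure D4:**
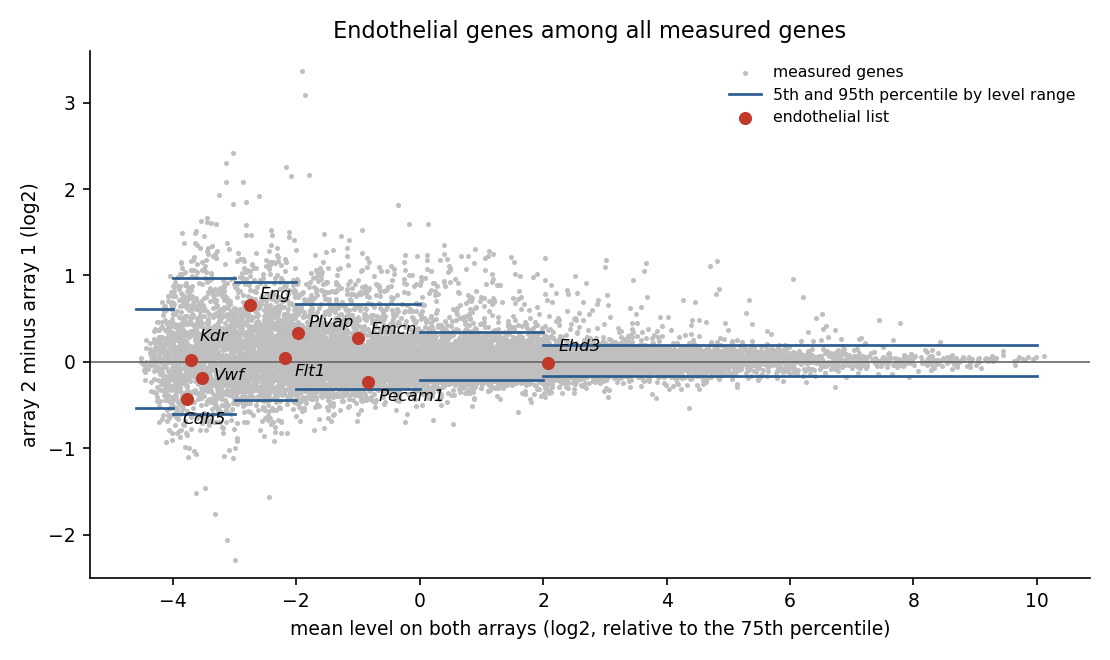
Mean level on both arrays (log2, relative to the 75th percentile, horizontal axis) and difference (array 2 minus array 1, log2, vertical axis) of all measured genes in grey, with the 9 endothelial genes in red. The blue lines are the 5th and 95th percentile within ranges of level, and all 9 endothelial genes lie between them.

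Read by the labels of the value table, the lots change places. There Eng had a linear ratio of 0.118 in the lot M column and 0.186 in the lot I column. Cdh5 had 0.085 in the lot M column and 0.063 in the lot I column, and Pecam1 had 0.606 in the lot M column and 0.515 in the lot I column. Which lot had the higher Eng and the lower Cdh5 is therefore not settled by these sources.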

How the data were processed

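RNA of sorted kidney Tregs was labelled with Cy3 and run on 2 Agilent arrays of 1 colour, 1 per antibody lot. The deposited files come from Agilent Feature Extraction 10.7.1.1, per the submitters' processing notes. Per the file headers, their processed signal intensity is background-corrected and detrended inside each array, with no normalisation between arrays. The value table deposited by the authors holds a linear ratio per probe, with column medians of 0.069 (lot M) and 0.070 (lot I), and no source used here says how it was made. Set against the scanner output (signal of 300 or more), log2 of signal over ratio varied with an SD of 0.00016 when each array met the column of the opposite lot. With the column of the same lot, the SD was 0.181 for array 2 and 0.156 for array 1. The ratio is thus the signal divided by a constant (278.6 for array 2, 285.0 for array 1), neither logged nor centred by gene.

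Controls (3671 spots per array) and outliers (56 spots in array 2, 75 in array 1) were dropped. Signals were log2-transformed, scaled to the 75th percentile and averaged per probe, and a gene's value is the mean of its measured probes. A gene above background on 1 array got a lower bound against the floor or its own dim signal, whichever was higher. RefSeq accessions (GRCm38.p6) gave 1 symbol to 32994 of 56605 probes (58.3%). Alternatives were normexp (limma 3.58.1, offset 50, on median spot and background intensity), median and spike-in scaling, quantile normalisation, 2 other filters, outliers kept, the brightest probe, the value table, another flag and another fold limit. Python 3.11.15 was used, and the gene calculation was tested on simulated data. The spike-in detection limit of array 2 was out of range. No test was run, since precision is limited by the number of arrays. By rule, all 10 genes were named, with defining genes and up to 3 of the largest differences of each other list, and further names were chosen after their values were seen. A few listed genes are not reported here. The genes, lists and motifs were chosen with earlier results of these data known.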

Additional observations from a re-analysis of the deposited data

How the results depend on the processing

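No paired analysis was possible because each lot has 1 array. For the same reason no array could be left out. The median of the endothelial genes measured under each setting lay between -0.04 and 0.05 in every alternative. The count past 1.5-fold was 1 in the main setting, 0 with normexp, 0 with the stricter filter on dim probes, 0 at a limit of 2-fold and 2 with no filter, which adds Tek. The count of genes measured was 5 with the stricter filter, which removes Cdh5, Kdr, Vwf and Eng, and 10 with the flag for positive and significant spots. Taken by its labels, the value table turned the differences round by its construction, with -0.66 for Eng, -1.16 for the proximal tubule list, -0.59 for the distal nephron list, -0.19 for further glomerular endothelial genes, -0.23 for other vessel beds, -0.20 for lymphatic genes, -0.54 for platelet genes, -0.32 for macrophage genes and -0.29 for mesangial genes. The platelet median was 0.29 with no filter on dim probes, which adds unmeasured genes. Apart from the value table, 64 of 68 single-gene values kept their sign over 8 alternatives, as did 98 of 104 list medians. The 6 medians that turned were small: endothelial activation 0.01 with normexp and 0.05 with the stricter filter, ligands and partner receptors 0.01 with no filter, T cells 0.01 with the brightest probe, and podocytes -0.00043 with median scaling and -0.02 with spike-in scaling. The median of further pan-endothelial genes was 0.04 with median scaling and 0.01 with spike-in scaling. Of the 4 that turned, Kdr gave 3 and Flt1 1. The largest move was that of Eng to 0.26 with normexp. That setting adds an offset of 50 units, while the Eng spots read 51 units above local background in array 2 and 35 in array 1. An offset of that size draws the differences of dim genes toward 0 by construction. No other offset was tried. Spike-ins differed by a median of 0.06 (0.03 to 0.09 over 8), so the sign of smaller differences depends on the scaling. Cdh5, Kdr, Vwf and Eng were within 4 times the detection floor on at least 1 array.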
